A study of Homo sapiens with 8 samples.

Results

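Called TEAD4 and SMAD2 regions were examined in 150 kb of human chromosome 6 around PIM1, from 37050000 to 37200000 in hg19. The window held 55 of the 972037 regions in the deposited lists. These were 17 of 262109 TEAD4 regions of SB431542-treated cells, 20 of 289380 TEAD4 regions of DMSO-treated cells and 18 of 420548 SMAD2 regions of DMSO-treated cells. PIM1 occupies 37137922 to 37143204 and reads toward higher coordinates, so that lower coordinates lie upstream of it. The window was chosen by 2 measured values, the row of a region in its list and its overlap with the other TEAD4 list: upstream of PIM1 it holds 3 pairs of overlapping TEAD4 regions in the first 5000 rows of both lists. The rows and overlaps of those pairs are therefore given as a description and were not tested.

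The lists come from chromatin immunoprecipitation followed by sequencing (ChIP-seq), in which antibody-bound, sheared chromatin is sequenced and stretches with many reads are called as regions. All cells were of the established line WA09, human embryonic stem cells kept on Matrigel with feeder-conditioned medium, and no genetic change is named in the labels. The first group was exposed to 10 µM SB431542 for 4 h before TEAD4 precipitation, and the other groups to the solvent DMSO for 4 h before TEAD4 or SMAD2 precipitation. With a single library in each group, no value has a replicate error and no p-value is given. The other 5 labelled groups (SMAD2 under SB431542, input DNA and IgG under each treatment) were not analysed here. The lists give a chromosome, a start and an end, with no score, height or read count. A row is the place of a region in its file, counted from 1, and is read as a ranking by the authors, which no header states. Depth is thus unknown, and the cell type could not be checked against marker genes, because no expression was measured.

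TEAD4 is a DNA-binding protein of the TEAD family, which recognises the core letters GGAATG and recruits the coactivators YAP and TAZ, the effectors held back by the Hippo kinases. SMAD2 carries the signal of activin, Nodal and TGF-β receptors into the nucleus, and in human embryonic stem cells this signal helps to maintain pluripotency. SB431542 blocks the type I receptors that phosphorylate SMAD2. PIM1 encodes a serine/threonine kinase that is active without an activating phosphorylation step, promotes survival and cell-cycle progression, and is a proto-oncogene best known as a transcriptional target of JAK-STAT signalling. In the RefSeq table of GRCh38.p14 its nearest protein-coding neighbours are FGD2 upstream and the overlapping genes TMEM217B and TMEM217 downstream.

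A group of 3 closely spaced TEAD4 regions upstream of PIM1 was called under both treatments, at nearly the same places. The middle one stood highest. In SB431542 cells it was called at chr6:37105619-37105892 (row 982), and in DMSO cells at chr6:37105451-37105999 (row 16). The DMSO region was 549 bp wide and its midpoint lay 32.2 kb before the PIM1 start. Among the 17779 TEAD4 regions of chromosome 6 in DMSO cells it was the second in row order, while its SB431542 partner had place 35 among 15456. The overlap covered all of the SB431542 region and 49.9% of the DMSO region, so this pair was not called shared when 50% of both regions was required. It fell just short, and that rule was not run with ends read as inclusive.

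The pair nearest to the gene was called at chr6:37109393-37109618 (row 1204) in SB431542 cells and at chr6:37109301-37109599 (row 224) in DMSO cells, with the DMSO midpoint 28.5 kb before the start. The farthest pair was called at chr6:37094114-37094411 (row 1068) in SB431542 cells and at chr6:37094051-37094449 (row 405) in DMSO cells, 43.7 kb before the start. The order of the pairs by row thus differed between treatments: the middle pair came first in both, the nearest pair came last under SB431542 and the farthest pair last under DMSO. The regions were separated by gaps of 11207 and 3500 bp in SB431542 cells and of 11001 and 3301 bp in DMSO cells. The lists differ in length and in how they were made, so a difference in row is not a measured change in binding. When rows were counted without regions that flank (by up to 500 kb) an interval of 1 Mb or more lacking calls in every list, the farthest, middle and nearest pair came to rows 555, 496 and 651 in SB431542 cells and 404, 16 and 224 in DMSO cells.

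The midpoints of the partners lay at most 55.5 bp apart. SB431542 midpoints lay 12.5, 30.5 and 55.5 bp nearer to PIM1 than the DMSO midpoints, for the farthest, middle and nearest pair. Over all 617 pairs in the first 5000 rows of both lists the offset without its sign had a median of 36 bp (interquartile range 18 to 71.5 bp), and the SB431542 midpoint had the higher coordinate in 50.9% of pairs. The farthest and the middle SB431542 region lay inside their DMSO partners, as did 64.8% of SB431542 regions over all pairs. SB431542 regions were 298, 274 and 226 bp wide from the farthest to the nearest, against DMSO widths of 399, 549 and 299 bp. The medians over all pairs were 278 bp (240 to 318) in SB431542 cells and 399 bp (349 to 499) in DMSO cells. The middle DMSO region was therefore above that interquartile range and both regions of the nearest pair below it.

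A further high-ranked TEAD4 region of DMSO cells, at chr6:37090801-37091049 (row 556), stood upstream of these pairs with its midpoint 47.0 kb before the PIM1 start. No SB431542 region overlapped it. The nearest began 192 bp further toward the gene, at chr6:37091242-37091422, and was far down its list (row 38065). Among the first 1000 rows of this DMSO list, 688 overlapped an SB431542 region (68.8%, 95% exact interval 65.8 to 71.7%), and of the 312 others 27 had an SB431542 region within 250 bp. In the whole window, 2 of 17 SB431542 TEAD4 regions and 2 of 20 DMSO TEAD4 regions missed the other list by at most 250 bp, against 5.34% and 4.74% of the whole lists. With this region counted, the DMSO list held 4 of its first 1000 rows within 18.8 kb, and this was the only place in the list with 4 such rows within 20 kb. That count was chosen after its values were seen.

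**Figure D1:**
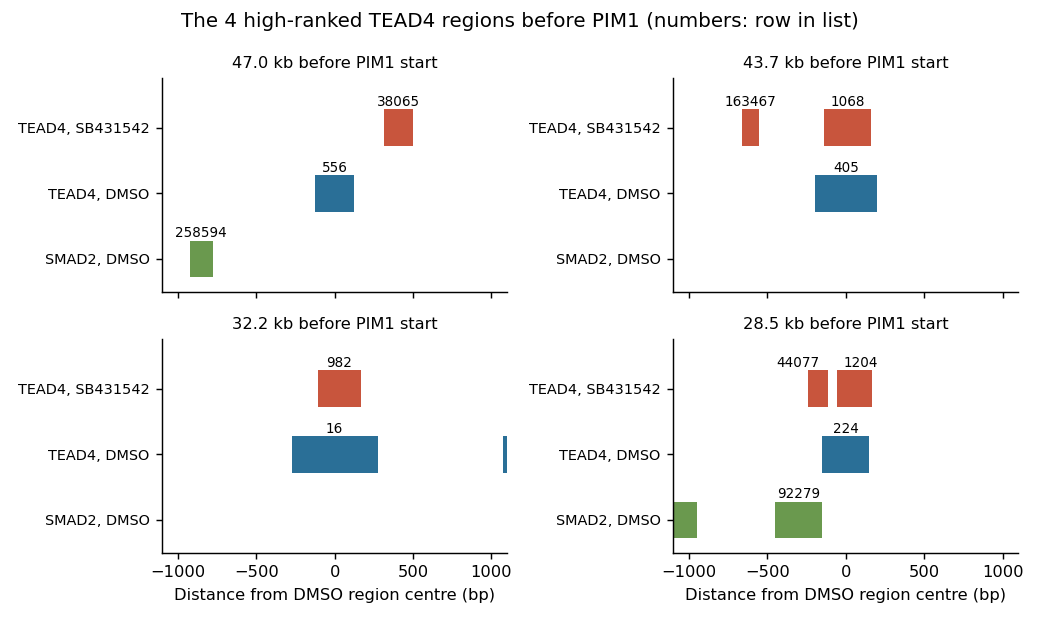
Regions of the 3 lists around the 4 TEAD4 regions that stand in the first 1000 rows of the DMSO list, drawn to scale. The x axis is the distance in bp from the centre of the DMSO TEAD4 region, numbers above bars are rows, and panels run from the region 47.0 kb before the PIM1 start to the one 28.5 kb before it. SB431542 bars (top) overlap DMSO bars (middle) in 3 panels and lie 192 bp away at 47.0 kb; no SMAD2 bar (bottom) overlaps a DMSO TEAD4 bar.

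Distances were taken from the group to the next regions near the start of the TEAD4 lists. In DMSO cells the region in row 556, 3001 bp upstream of the farthest pair, was counted with the group here. The upstream distances of the treatments therefore start from different regions. The next TEAD4 region in the first 5000 rows was 142.0 kb upstream of the farthest pair in SB431542 cells (row 4241). In DMSO cells it was 70.6 kb upstream of the region in row 556 and stood in row 2271. Downstream it was 996.5 kb away in both, at chr6:38106166-38106493 (row 715) in SB431542 cells and at chr6:38106101-38106499 (row 215) in DMSO cells, places that overlap. No region between the upstream group and that place, PIM1 included, was in the first 5000 rows of either TEAD4 list. No TEAD4 region of the window stood close to the threshold of 5000 rows: past it, the first rows were 34476 in SB431542 cells and 15773 in DMSO cells. On the whole of chromosome 6, the first 5000 rows held 252 TEAD4 regions in SB431542 cells and 336 in DMSO cells. How common such distances are was not examined, so they do not show whether the group stood apart.

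**Figure D2:**
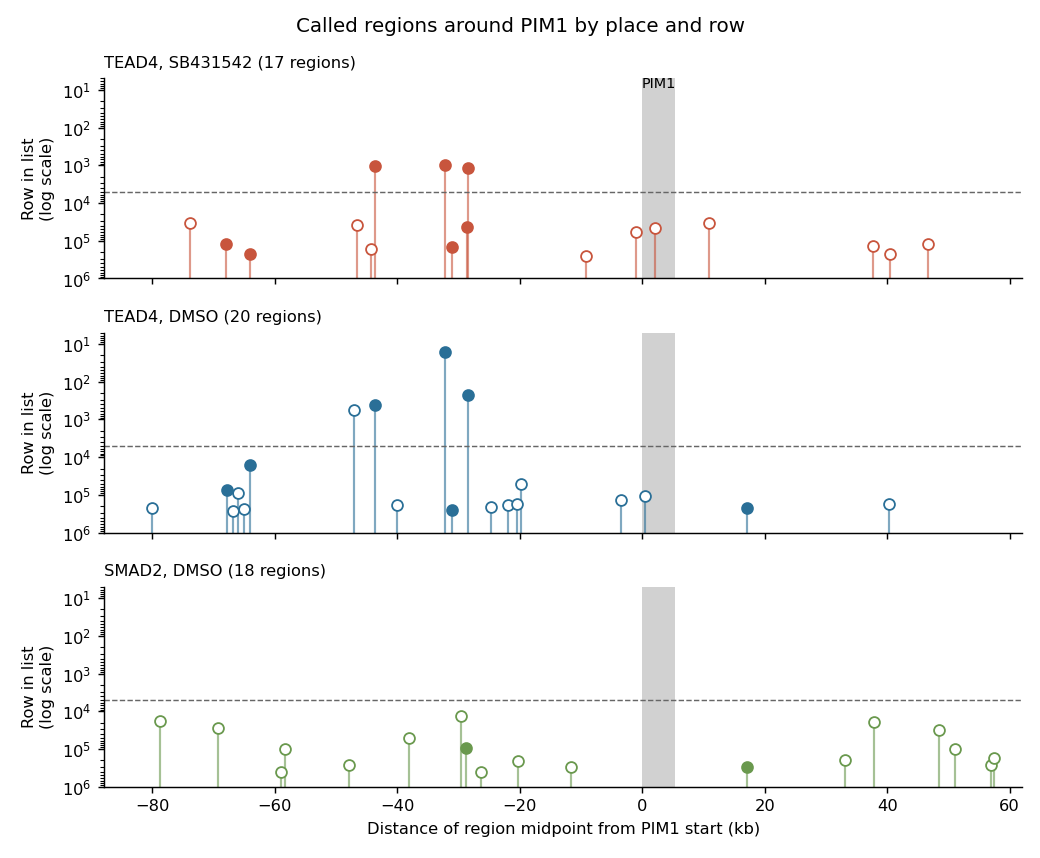
Row of each region in its list (log scale, first rows at the top) against the distance of its midpoint from the PIM1 start in kb, with TEAD4 in SB431542 cells, TEAD4 in DMSO cells and SMAD2 in DMSO cells from top to bottom. Filled points overlap a region of another list, the grey band is PIM1 and the dashed line is row 5000. TEAD4 points above the line, 3 in SB431542 cells and 4 in DMSO cells, all lie upstream of the gene, and no SMAD2 point reaches it.

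Many row numbers further down the lists are known only to within a block of rows. In the SB431542 list 85.1% of rows were followed by a row on the same chromosome, in the TEAD4 list of DMSO cells 91.9% and in the SMAD2 list 75.3%, and of those next rows at least 99.8% had a lower position. Long blocks of rows thus ran down the genome, and within a block the row follows position and ranks nothing. Blocks around the 3 pairs were 2 or 3 rows long, and the block around row 556 held 13 rows. The limit of 5000 rows fell inside a block in both TEAD4 lists. This block ran from row 4989 to 5027 in SB431542 cells and from row 4912 to 5419 in DMSO cells. Which of its regions counted among the first 5000 rows thus followed their place in the genome. Past row 5000 the blocks around regions of the window held between 3 rows (the SMAD2 region in row 200042) and 10857 rows (the DMSO TEAD4 region in row 203639, whose place is known as between 69.4 and 73.1% of the list).

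Among the 613 TEAD4 regions of DMSO cells that shared the first 5000 rows with an SB431542 partner (12.3% of those 5000 rows), 3 groups of at least 3 regions with gaps of at most 50 kb were present. The group upstream of PIM1 spanned 15549 bp, against 66299 bp for 4 regions on chromosome 3 (134027301 to 134093599) and 24999 bp for 3 regions on chromosome 16 (71043401 to 71068399). Its SB431542 rows lay between 982 and 1204, those of the chromosome 3 group between 350 and 1991 and those of the chromosome 16 group between 1011 and 1799. Its DMSO rows lay between 16 and 405, against 10 to 2541 on chromosome 3 and 476 to 855 on chromosome 16. The PIM1 group thus had the narrowest range of SB431542 rows and the chromosome 16 group the narrowest range of DMSO rows, while the chromosome 3 group held the first row of each list among the groups. SMAD2 regions overlapped 0 of the 3 TEAD4 regions upstream of PIM1, 1 of 4 on chromosome 3 and 1 of 3 on chromosome 16. Over the whole TEAD4 list of DMSO cells the share was 7.67%, and the share among the 613 regions is not given here. The counts are too small to set the groups apart. Differences between the groups were not tested.

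**Figure D3:**
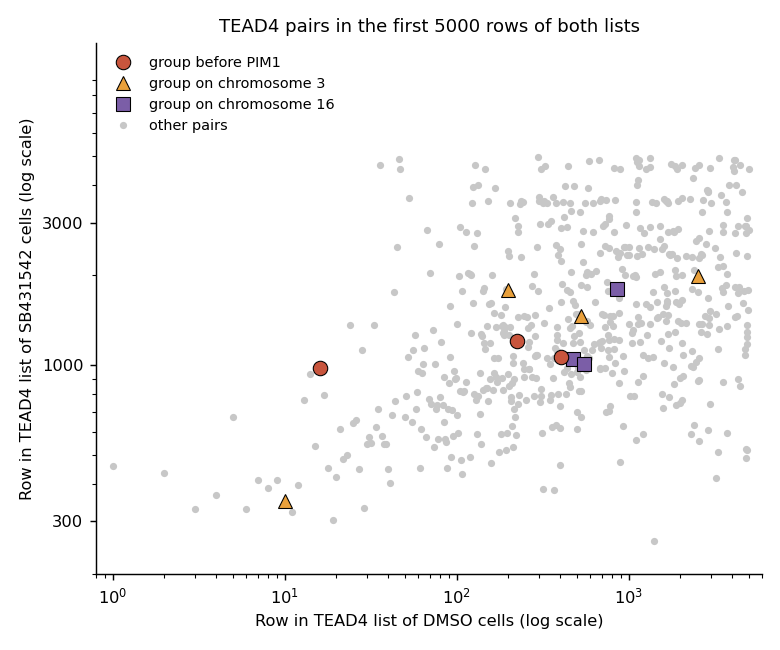
Rows of the 617 TEAD4 pairs that stand in the first 5000 rows of both lists, with the row in the DMSO list on the x axis and in the SB431542 list on the y axis (both log scale). Large red circles are the 3 pairs upstream of PIM1 (SB431542 rows 982 to 1204, DMSO rows 16 to 405), triangles and squares the groups on chromosomes 3 and 16, and small grey points all other pairs.

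Over the whole window, 7 of the 17 TEAD4 regions of SB431542 cells overlapped a TEAD4 region of DMSO cells (41.2%, 95% exact interval 18.4 to 67.1%), against 6.39% of the whole list. In the other direction 6 of the 20 DMSO regions overlapped an SB431542 region (30.0%, 11.9 to 54.3%), against 5.69% of the whole list. The 3 pairs that chose the window are among these, so nothing is read from the excess. Without them the counts were 4 of 14 SB431542 regions (28.6%) and 3 of 17 DMSO regions (17.6%). One of those 4, at chr6:37109211-37109338 (row 44077), lay on the edge of the nearest DMSO region of the group and shared 38 bp with it. The others joined rows past 5000 in both lists: SB431542 row 121824 with DMSO row 75614 (20 bp shared), SB431542 row 223276 with DMSO row 15773 (113 bp) and SB431542 row 147675 with DMSO row 258874 (111 bp). All overlapping TEAD4 regions of the window lay upstream of PIM1.

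TEAD4 regions were more numerous upstream of PIM1 than downstream. In SB431542 cells 12 lay upstream (1.36 per 10 kb), 1 inside the gene and 4 downstream (0.70 per 10 kb). In DMSO cells 17 lay upstream (1.93 per 10 kb), 1 inside and 2 downstream (0.35 per 10 kb). Of the SMAD2 regions, 11 lay upstream (1.25 per 10 kb), 0 inside and 7 downstream (1.23 per 10 kb), a similar density on both sides. The window was chosen for its upstream pairs, which are among the upstream regions counted, and no test of this difference was made. Over its whole length, the number of regions was at or just above the upper quartile of the genome for TEAD4 and below the lower quartile for SMAD2. The 19097 fixed tiles of 150 kb that held any region had a median of 13 SB431542 TEAD4 regions (interquartile range 10 to 17, against 17 in the window), 15 DMSO TEAD4 regions (12 to 19, against 20) and 22 SMAD2 regions (19 to 26, against 18).

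The TEAD4 regions past row 5000 were spread through their lists. The 14 in SB431542 cells were 106 to 198 bp wide (median 146 bp, against 145 bp over the list), in rows 34476 to 249227. The 16 in DMSO cells were 99 to 349 bp wide (median 174 bp, against 199 bp over the list), in rows 15773 to 262141. The last rows of the window were the SB431542 region at chr6:37128639-37128744 and the DMSO region at chr6:37070951-37071249. The tightest 5 DMSO regions, in rows 15773 to 262141, lay within 3.95 kb at chr6:37070001-37073949, further upstream than the high-ranked group. This stretch met 2 SB431542 regions (rows 121824 and 223276) and 0 SMAD2 regions.

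At PIM1 itself each TEAD4 list held a single region inside the gene, and the lists did not share it. The SB431542 region was at chr6:37139925-37140122 (row 46701), 2003 bp past the gene start, and the DMSO region at chr6:37138301-37138449 (row 106341), 379 bp past it. Whether these lie in an exon or an intron was not determined, since no hg19 annotation of exons was used here. The SB431542 region nearest to the start on the upstream side ended 903 bp before it (chr6:37136861-37137018, row 60157). The DMSO region nearest on that side ended 3372 bp before it (chr6:37134401-37134549, row 137338). No list had a region in the 250 bp before the start. The bases before the start are shown as background on the gene and were not compared with the sequence of the distant group. They are the RefSeq sequence of GRCh38.p14, plus strand, chr6:37169902-37170151, in lower case throughout because none of the letters searched was found:
PIM1 promoter: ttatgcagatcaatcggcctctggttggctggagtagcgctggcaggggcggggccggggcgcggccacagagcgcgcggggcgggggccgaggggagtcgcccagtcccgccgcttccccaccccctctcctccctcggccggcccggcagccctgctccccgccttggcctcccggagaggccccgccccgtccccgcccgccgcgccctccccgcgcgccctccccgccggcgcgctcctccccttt
The stretch had 79.6% G and C, compared with a median of 58.0% over 35116 RefSeq promoters of the same length (interquartile range 46.4 to 68.0%). The TEAD core GGAATG, the SMAD letters CAGAC and the FOXH1 letters TGTGGATT, each searched on both strands, gave 0 matches. They were found in 11.9%, 38.0% and 0.71% of those promoters, for TEAD, SMAD and FOXH1. The called regions are in hg19 and their sequence was not used here.

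No SMAD2 region overlapped a DMSO region of the TEAD4 group. Over the whole SMAD2 list, neighbouring regions were a median of 4.45 kb apart. Of the TEAD4 regions in the window, 1 of 17 in SB431542 cells (5.88%, 95% exact interval 0.15 to 28.7%) overlapped SMAD2, against 5.46% of the whole list. In DMSO cells 1 of 20 did (5%, 0.13 to 24.9%), against 7.67%. In the other direction 1 of 18 SMAD2 regions overlapped TEAD4 of SB431542 cells (5.56%, 0.14 to 27.3%), against 3.39% of the whole list, and 1 of 18 overlapped TEAD4 of DMSO cells (5.56%), against 5.29%. With so few regions these shares could not be told apart from those of the whole lists.

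The SMAD2 region closest to the group, at chr6:37109001-37109299 (row 92279), ended 1 bp before the nearest DMSO TEAD4 region and overlapped the SB431542 region in row 44077. On the 50 bp grid that both DMSO lists follow, these DMSO regions fill neighbouring bins. The first SMAD2 region of the window in row order, at chr6:37108251-37108499 (row 12966), lay 801 bp from the same TEAD4 region, and the last (row 413624) was at chr6:37078851-37078949. The middle and farthest pairs had no SMAD2 region within 2 kb of the DMSO region: the gaps were 2251 and 3901 bp. The single place where SMAD2 met a TEAD4 region of DMSO cells was downstream of PIM1, TEAD4 at chr6:37155001-37155149 (row 227797) and SMAD2 at chr6:37155051-37155149 (row 301338).

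No SMAD2 region lay in PIM1 or within 11 kb of it. The nearest were at chr6:37126151-37126299 (row 298500), 11622 bp upstream, and at chr6:37155051-37155149, 11846 bp downstream of the gene's end. The 28.8 kb between them was the longest stretch of the window with no SMAD2 region. The longest without a TEAD4 region were 26529 bp in SB431542 cells and 23001 bp in DMSO cells, both downstream of PIM1. Over the whole lists, 1.49% of gaps between SMAD2 regions were at least as long as the longest in the window. For TEAD4 the shares were 8.53% in SB431542 cells and 10.7% in DMSO cells. These are shares of single gaps, whereas each value from the window is the longest of all its gaps. They therefore do not show how often a window of this size holds such a stretch. The same 28.8 kb held 4 TEAD4 regions in SB431542 cells and 2 in DMSO cells that did not touch its edges.

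**Figure D4:**
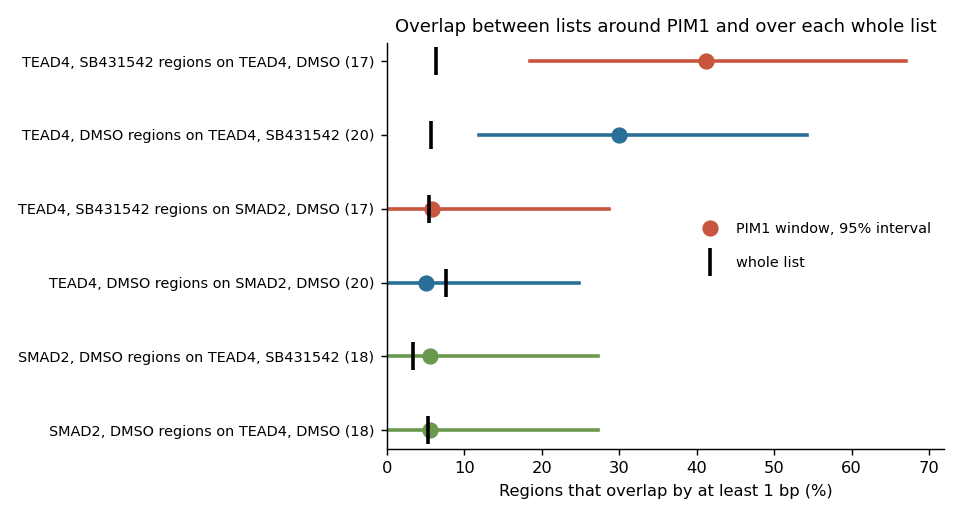
Share of regions that overlap another list by at least 1 bp, in the PIM1 window (points, with 95% exact binomial intervals for counting error only; number of regions in brackets) and over the whole list (black ticks). In the top rows, TEAD4 against TEAD4, the window's shares are 41.2% and 30.0% against 6.39% and 5.69%, with the pairs that chose the window included; in the 4 rows with SMAD2 the ticks lie inside the intervals.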

How the data were processed

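The authors deposited 1 list of called regions per analysed library, with 3 columns (chromosome, start and end in bp) and no header. Per the submitters' processing notes, positions are on hg19. The sources used here name no aligner, caller, threshold, control or depth. A list was given to the 1 sample whose title has the target and treatment that the list is named for. Starts were raised by 1 bp for printing, and widths are end minus start. Starts of both DMSO lists are multiples of 50 bp, against 1.97% in the SB431542 list, so every comparison between treatments also compares 2 ways of making a list. Rows are counted from 1 in file order, read as a ranking although no header says so. Regions were shared with at least 1 bp in common. Intervals are exact Clopper-Pearson and cover counting error only. Regions named are those with a partner, those in the first 5000 rows, the first, last and nearest to PIM1 of each list and those in the gene. The near misses, the next high-ranked regions outside the window and the regions given for their block of rows were named after their values were seen. The window and these choices were made with earlier results of these data known. Overlap functions were tested on simulated regions against a direct count. Python 3.11.15, NumPy 2.4.6, pandas 2.3.3, SciPy 1.17.1 and matplotlib 3.10.9 were used.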

Additional observations from a re-analysis of the deposited data

How the results depend on the processing

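Of 32 alternatives, 22 left the value within its interval, or within 1.5 times for counts. Among the 22, the count of the 3 pairs in the first 20000 rows of both lists could not have fallen. The alternatives that moved a value follow. With 50% of both regions required, the TEAD4 shares were 17.6% of SB431542 regions and 15% of DMSO regions (3 of 20, within its interval), the middle pair was among those lost, and SMAD2 on TEAD4 of SB431542 cells fell to 0%, as it did with midpoints within 100 bp. In the first 20000 rows the TEAD4 shares were 100% (3 of 3 SB431542 regions) and 60.0% (3 of 5 DMSO regions). The 3 overlapping regions are in both cases the pairs that chose the window, so these shares restate that choice. In the first 50% of rows, SMAD2 on TEAD4 of DMSO cells was 0% (0 of 12). Shorter lists and stricter rules change the regions counted by construction. Widening the window by 50 kb on each side gave 26 TEAD4 regions in SB431542 cells, 32 in DMSO cells and 31 SMAD2 regions. In the first 1000 rows of both lists 1 of the 3 pairs was left, the middle one, since the other SB431542 rows are 1068 and 1204. Settings chosen after seeing the data were inclusive ends, gaps up to 250 bp, removal of the 3 pairs, and rows counted without regions within 500 kb of 31 stretches of at least 1 Mb that hold no region. The last of these kept all 3 pairs. Leaving out regions can only lower the row of a region that is kept, so it could not move them past row 5000. As to blocks, no paired analysis was possible because no group was replicated, and for the same reason no library could be left out. Depth is unknown, and a region missing from a list may have fallen under a threshold that is not stated.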

Other observations

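Regions in the window that just miss a region of another list were looked up after the data were seen. Besides the region in row 556 of the DMSO list, the SB431542 TEAD4 region at chr6:37178352-37178471 (row 227728) and the DMSO TEAD4 region at chr6:37178151-37178349 (row 179042) lay 2 bp apart downstream of PIM1. The SB431542 TEAD4 region of the nearest pair (row 1204) lay 93 bp from the SMAD2 region in row 92279. An SB431542 TEAD4 region at chr6:37175456-37175594 (row 139116) lay 106 bp from the SMAD2 region at chr6:37175701-37175899 (row 19543). Near misses to SMAD2 were not counted over the whole lists. The SMAD2 region at chr6:37117601-37117699 (row 204689) lay between DMSO TEAD4 regions in rows 178003 and 50448, 51 bp from the first and 251 bp from the other.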
